A study of Mus musculus with 4 samples.

Results

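The inhibitory receptors of somatostatin and dopamine were followed across the hormone cells of the mouse pituitary. The 7 genes were Sstr1, Sstr2, Sstr3, Sstr4, Sstr5, Drd2 and Drd4, chosen by name from the 55357 gene identifiers of the deposited matrix, and all 7 were present. Single-cell libraries had been made from pituitaries of male mice on a high-fat diet (HFD, 2 libraries) or a normal diet (ND, 2 libraries). Each library pooled 3 pituitaries of mice that were 4 weeks old at the start and were fed for 12 weeks. Per the labels, the glands were dissociated with enzymes and 3′ droplet libraries were sequenced. The labels also carry the LβT2 cell line and a gonadotroph cell type for every library, whereas the matrix held all the hormone cell types of a whole gland. Barcodes carry a number from 1 to 4, and nothing ties a number to a library or a diet, so HFD and ND were not compared. Values are given over all cells and in each of these 4 barcode sets, which are not replicates of a group. No test between groups was run, and intervals are 95% intervals that cover counting error only.

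Somatostatin and dopamine are the main hypothalamic brakes on the anterior and intermediate pituitary. Somatostatin holds back growth hormone and thyrotropin. Dopamine holds back prolactin and, in the intermediate lobe, the Pomc products of melanotrophs. The receptors of both ligands that are described here couple to inhibitory G proteins, which lower cyclic AMP, open inward-rectifier potassium channels and close voltage-gated calcium channels. Drd2 is the textbook dopamine receptor of the gland, and Sstr2 and Sstr5 are the somatostatin receptors best known from growth hormone cells.

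Hormone classes were set by the share of a cell's unique molecular identifiers (UMIs, counted molecules) that came from its hormone, and no receptor entered the rule. The Gh class (at least 15% Gh) held 14936 cells and the Prl class (at least 5% Prl) 7305. A Gh and Prl class, over both thresholds, held 123. Cells with at least 2% Pomc were split by the melanotroph genes Pax7, Oacyl and Pcsk2 into 690 Pomc melanotroph and 1894 Pomc corticotroph cells. The gonadotropin class (at least 0.1% Fshb plus Lhb) held 673 cells and the Tshb class (at least 0.1% Tshb) 446. Together these were 26067 of 36207 kept cells (72.0%). Pax7, Oacyl and Pcsk2 were part of the class rule, and of the other 17 class markers 13 were highest in their own class. The exceptions were Pou1f1 in the Gh class, Esr1 in the Prl class, Tbx19 in the Pomc melanotroph class and Cga in the Tshb class, which are known from more than one hormone cell type. Median depth ran from 6257 UMIs in the Tshb class to 14951 in the gonadotropin class. The sets held 81621358 to 92665029 UMIs, and 249 of the kept barcodes (0.688%) had a sequence seen in more than 1 set. Endothelial marker cells (858 cells) and immune marker cells (1988 cells) served as background. Hormone genes took 2.59% and 2.49% of their UMIs, a measure of free RNA.

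RefSeq windows upstream of the start (GRCm38.p6, 250 bases) were found for 5 of the 7 genes. The sequences of Drd2, Drd4 and Sstr3 are shown because these genes held the largest receptor share of a class. They run 5′ to 3′ and stop where an exon is annotated, 43 bases short of the window's end for Drd2 and 44 for Drd4. Of 2 starts of Sstr3, the one whose window holds no exon is shown. Capitals mark GC boxes (GGGCGG on either strand), and in Drd4 neighbouring matches overlap.
Drd2, chr9:49340153-49340359, plus strand: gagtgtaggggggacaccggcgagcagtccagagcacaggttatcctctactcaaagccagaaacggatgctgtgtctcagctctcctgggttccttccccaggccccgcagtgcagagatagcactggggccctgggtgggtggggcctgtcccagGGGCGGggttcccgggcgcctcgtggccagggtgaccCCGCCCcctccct
Drd4, chr7:141291768-141291973, plus strand: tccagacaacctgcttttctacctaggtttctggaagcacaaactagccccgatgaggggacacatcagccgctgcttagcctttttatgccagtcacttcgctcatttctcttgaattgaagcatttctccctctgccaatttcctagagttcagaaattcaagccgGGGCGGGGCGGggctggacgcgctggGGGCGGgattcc
Sstr3, chr15:78541407-78541656, minus strand: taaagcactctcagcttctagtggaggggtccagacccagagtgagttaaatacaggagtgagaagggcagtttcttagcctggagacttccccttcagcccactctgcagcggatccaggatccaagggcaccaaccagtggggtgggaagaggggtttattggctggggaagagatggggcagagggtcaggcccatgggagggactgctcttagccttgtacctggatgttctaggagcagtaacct
The windows of Drd2 and Sstr2 held 2 GC boxes each and that of Drd4 held 3, and 32.7% of 32851 windows held at least 1. None was found for Sstr3 or Sstr4. No member's window held the letters of Pou1f1 (ATGNATA, in 7.92% of all windows), Pitx1 (TAATCC, 6.25%), Nr5a1 (AAGGTCA, 4.08%) or a TATA box (TATAAA, 12.4%), on either strand.

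Drd2 was the most abundant of the 7 receptors by UMIs and marked the Pomc melanotroph and Prl classes. In Pomc melanotroph cells it stood at 196, 197, 190 and 204 CPM in sets 1 to 4 (UMIs of the gene over all UMIs of the class, scaled to counts per 1000000), with 1288 UMIs and a pooled level of 197 CPM (interval 187 to 208). In Prl cells it stood at 86.3, 98.0, 92.3 and 90.2 CPM, with 4953 UMIs and a pooled level of 91.4 CPM (88.9 to 94.0). All 4 Pomc melanotroph values lay above all 4 Prl values, and the pooled ratio was 2.16 (2.03 to 2.29). The gonadotropin class came next, at 8.29, 9.85, 9.12 and 10.8 CPM, which was 20.1-fold below the Pomc melanotroph class (16.3 to 25.1) and above every immune set (at most 5.66 CPM). The Tshb class, with 13 UMIs, ranged from 0 to 13.1 CPM over the sets and overlapped the gonadotropin class. The Gh class had 2.47 CPM and the Pomc corticotroph class 1.76 CPM, against 2.57 CPM in immune and 1.53 CPM in endothelial cells. The immune value rested on set 2 (5.66 CPM). Without that set Drd2 was 2.31 CPM in the Gh class (2.04 to 2.60) and 1.88 CPM in the Pomc corticotroph class, against 1.23 CPM in immune (0.452 to 2.68) and 3 UMIs in endothelial cells (0.209 to 2.96 CPM), with overlapping intervals. With CPM over all UMIs, Drd2 in these 2 hormone classes, taken whole, was not separated from the background. With hormone genes left out of the totals, Drd2 was 4.41 CPM in the Gh and 1.94 CPM in the Pomc corticotroph class. Immune cells then had 2.64 CPM and endothelial cells 1.57 CPM. Gh sets ran from 3.53 to 5.25 CPM and endothelial sets reached at most 3.16 CPM. Immune set 2 had 5.79 CPM, and the other immune sets at most 1.86 CPM. No interval was taken for these values. With doublets kept and CPM over all UMIs, Drd2 was 4.22 CPM in the Gh and 3.52 CPM in the Pomc corticotroph class.

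Both Pomc classes make the same prohormone, which is cut to corticotropin in corticotrophs and to melanotropins in melanotrophs. Drd2 separated them 112-fold (74.9 to 175), with 1288 UMIs in 690 melanotroph cells against 24 UMIs in 1894 corticotroph cells. The size of this gap rests on how Pomc cells were divided. With a division at a Pomc share of 10% in place of the melanotroph genes, Drd2 was 125 CPM in the melanotroph and 16.9 CPM in the corticotroph class. Under the main division, each class was also cut into 4 equal groups by Pomc share. The lowest melanotroph group (median share 8.33%) had 187 CPM of Drd2, and the highest corticotroph group (median share 14.0%) had 2.09 CPM.

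Drd4, a Drd2-like receptor best known from brain and retina, followed another pattern. It was highest in Tshb cells, at 46.3, 30, 14.9 and 15.8 CPM in sets 1 to 4 (86 UMIs, 28.5 CPM pooled, interval 22.8 to 35.2). Gonadotropin cells followed at 19.7, 11.1, 9.12 and 10.8 CPM (110 UMIs, 11.6 CPM pooled, 9.54 to 14.0). The Tshb value was the higher in each of the 4 sets, with a pooled ratio of 2.46 (1.83 to 3.29), but the ranges over the sets overlapped. Within the Tshb class, sets 1 and 2 were above sets 3 and 4, a span of 3.10-fold on 33, 36, 8 and 9 UMIs, and the interval of set 2 overlapped those of sets 3 and 4. Every other hormone class was far lower. The Prl class had 0.572 CPM (31 UMIs), the Gh class 0.0981 CPM (15 UMIs), and the Pomc corticotroph and melanotroph classes 2 UMIs and 1 UMI. Endothelial and immune cells had 1 UMI each.

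**Figure D1:**
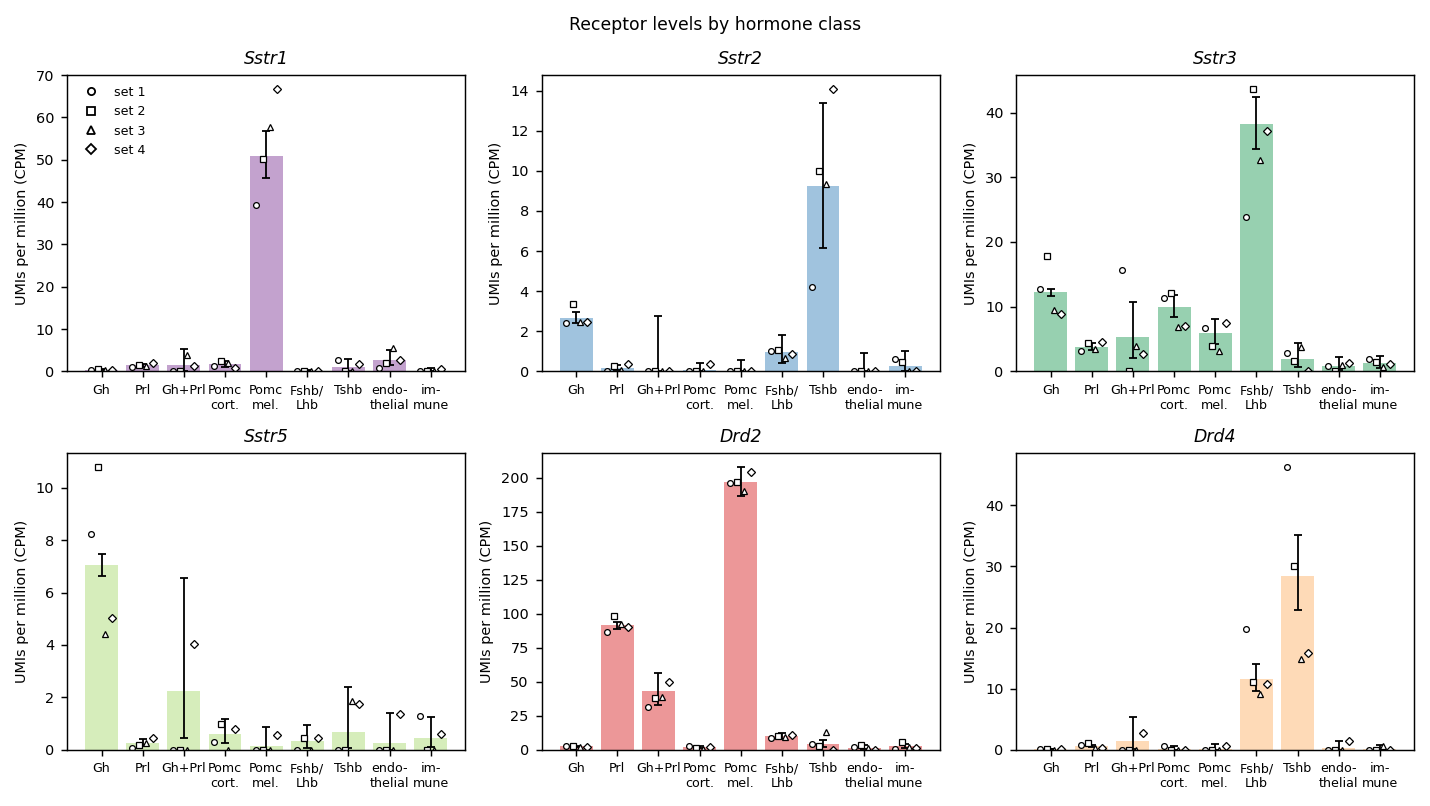
Level of 6 receptors in CPM (linear axes, each with its own scale), in the 7 hormone classes and in endothelial and immune marker cells. Bars are pooled levels with exact Poisson 95% intervals and open symbols are the 4 barcode sets. Drd2 reaches 197 CPM in Pomc melanotroph cells, Sstr3 38.3 CPM in gonadotropin cells and Drd4 28.5 CPM in Tshb cells. Sstr4 is left out because 1 UMI was counted in the hormone classes.

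Sstr3, a somatostatin receptor known to sit in the primary cilium, was the somatostatin receptor with the most UMIs. It was highest in gonadotropin cells, at 23.8, 43.7, 32.6 and 37.2 CPM in sets 1 to 4 (363 UMIs, 38.3 CPM pooled, 34.4 to 42.4). The Gh class had 12.8, 17.9, 9.56 and 8.90 CPM (1861 UMIs, 12.2 CPM pooled, 11.6 to 12.7), and the Pomc corticotroph class 11.3, 12.1, 6.91 and 7.08 CPM (136 UMIs, 9.98 CPM pooled, 8.38 to 11.8). Every gonadotropin set was above every Gh and Pomc corticotroph set, and the gonadotropin to Gh ratio was 3.14 (2.80 to 3.52). The Gh and Pomc corticotroph values overlapped. Pomc melanotroph cells had 5.97 CPM (39 UMIs), Prl cells 3.82 CPM (207 UMIs) and Tshb cells 1.99 CPM (6 UMIs), each overlapping its neighbour in the order. Immune and endothelial cells had 1.29 and 0.763 CPM. Stem or folliculostellate marker cells, also below all hormone thresholds, had 4.06 CPM (3.10 to 5.23), not below the Prl and Tshb values. With the 7 hormone genes left out of the totals, the values of Gh cells moved most, since hormone genes took 44.1% of their UMIs. Sstr3 was then 44.0 CPM in gonadotropin and 21.8 CPM in Gh cells, a ratio of 2.02, and the ranges overlapped (27.5 CPM in gonadotropin set 1 against 30.3 CPM in Gh set 2).

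Sstr5, which binds somatostatin and cortistatin, was nearly limited to Gh cells among the 6 single-hormone classes. There it stood at 8.23, 10.8, 4.43 and 5.02 CPM in sets 1 to 4 (1076 UMIs, 7.04 CPM pooled, 6.63 to 7.47). Sets 1 and 2 were again above sets 3 and 4, a span of 2.45-fold with intervals that did not overlap between the higher and lower pair. Median depth of Gh cells was 9488, 9833, 10182 and 9247 UMIs in sets 1 to 4, and its part in the difference was not tested. The other 5 single-hormone classes held 27 of its 1103 UMIs, and none exceeded 0.662 CPM. Gh cells stood 29.3-fold above Prl cells (17.1 to 55.3), which share their Pou1f1 lineage. Cells of the Gh and Prl class had 3 UMIs, or 2.24 CPM (0.463 to 6.56).

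Sstr2, the main target of the drugs octreotide and lanreotide, was highest not in Gh but in Tshb cells. Tshb cells had 4.21, 9.99, 9.33 and 14.1 CPM in sets 1 to 4, on 28 UMIs (9.27 CPM pooled, 6.16 to 13.4). The sets held 3, 12, 5 and 8 of these UMIs, and the interval of set 1 (0.867 to 12.3) covered every Gh set. Gh cells had 2.40, 3.36, 2.47 and 2.47 CPM on 408 UMIs (2.67 CPM pooled, 2.42 to 2.94). The lowest Tshb set lay above the highest Gh set, and the ratio was 3.47 (2.28 to 5.10), or 2.13 with hormone genes left out of the totals. Under that scaling the ranges overlapped, with Tshb set 1 at 4.69 CPM and Gh set 2 at 5.68 CPM. Gonadotropin cells followed at 0.949 CPM (0.434 to 1.80) and Prl cells at 0.166 CPM (0.0760 to 0.315), on 9 UMIs each. Pomc corticotroph cells had 1 UMI and Pomc melanotroph cells none. The pooled Tshb level was 20.2-fold above a floor of 3 UMIs over the Pomc melanotroph class, with the counting error of the Tshb level left out.

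Sstr1 marked the Pomc melanotroph class. It stood at 39.2, 50.2, 57.7 and 66.8 CPM there in sets 1 to 4 (333 UMIs, 51.0 CPM pooled, 45.7 to 56.8), with up to 9 UMIs in 1 cell. The Pomc corticotroph class had 1.19, 2.34, 1.92 and 0.786 CPM on 23 UMIs (1.69 CPM pooled), a ratio of 30.2 (19.8 to 48.3). All melanotroph sets lay above every other class. Prl cells had 1.40 CPM (1.11 to 1.76) and Gh cells 0.360 CPM, against 2.80 CPM in endothelial cells (11 UMIs, 1.77 CPM without set 3) and 0.143 CPM in immune cells (1 UMI, at most 0.797). The Prl level was thus above the immune level, while its interval overlapped the endothelial one (1.40 to 5.01). None of 673 gonadotropin cells had an Sstr1 UMI, and the interval allows up to 0.547% of cells with a UMI. The pooled level in Pomc melanotroph cells was 161-fold above a floor of 3 UMIs over the gonadotropin class, with the counting error of the melanotroph level left out. With Pomc cells split at a Pomc share of 10%, Sstr1 was 28.9 CPM in the melanotroph and 8.60 CPM in the corticotroph class. Sstr4, a receptor studied mostly in brain, had 1 UMI in all hormone classes, in a Prl cell. In 14936 Gh cells with no Sstr4 UMI the upper limit was 0.0241 CPM.

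The make-up of receptor UMIs differed from class to class and does not depend on the hormone share of the total. These are counts of 3′ molecules, not divided by transcript length, and genes may be captured unequally, so shares compare classes more safely than genes. Drd2 held 93.6% of 5290 receptor UMIs in Prl cells (92.9 to 94.3), from 92.2% to 94.7% over the sets. In Pomc melanotroph cells Drd2 held 77.5% of 1662 UMIs (75.4 to 79.5) and Sstr1 20%, which left 2.35% for Sstr3. Sstr3 held 62.8% of 578 UMIs in gonadotropin cells (58.7 to 66.8), followed by Drd4 with 19.0% and Drd2 with 16.1%. Set 1 stood apart here, with 45.1% Sstr3 and 37.3% Drd4 on 51 receptor UMIs, against 61.9% to 66.0% Sstr3 in the other sets.

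Gh cells had a mixed make-up. Sstr3 held 49.1% of 3792 UMIs (47.5 to 50.7), Sstr5 28.4%, Sstr2 10.8% and Drd2 9.94%, and the Sstr3 share kept within 46.7% to 51.4% over the sets although the levels of Sstr3 and Sstr5 differed. The drug targets Sstr2 and Sstr5 were thus fewer by UMIs than Sstr3. Pomc corticotroph cells had 194 receptor UMIs, of which Sstr3 held 70.1% (63.1 to 76.5), Drd2 12.4% and Sstr1 11.9%. With Pomc cells split at a Pomc share of 10% instead, Drd2 led in the class below it (16.9 CPM, against 9.14 CPM of Sstr3). The share of Sstr3 there was 25.7%. That class also takes in cells with the melanotroph genes, whose lowest group by Pomc share had a median of 8.33%. Tshb cells had 138 receptor UMIs, with 62.3% Drd4 (53.7 to 70.4) and 20.3% Sstr2. The Drd4 share of Tshb cells ran from 34.8% to 76.7% over the sets, so the lead rests on few molecules. Somatostatin receptors together made up 89.7% of receptor UMIs in Gh, 86.6% in Pomc corticotroph, 64.9% in gonadotropin, 28.3% in Tshb, 22.4% in Pomc melanotroph and 5.78% in Prl cells.

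**Figure D2:**
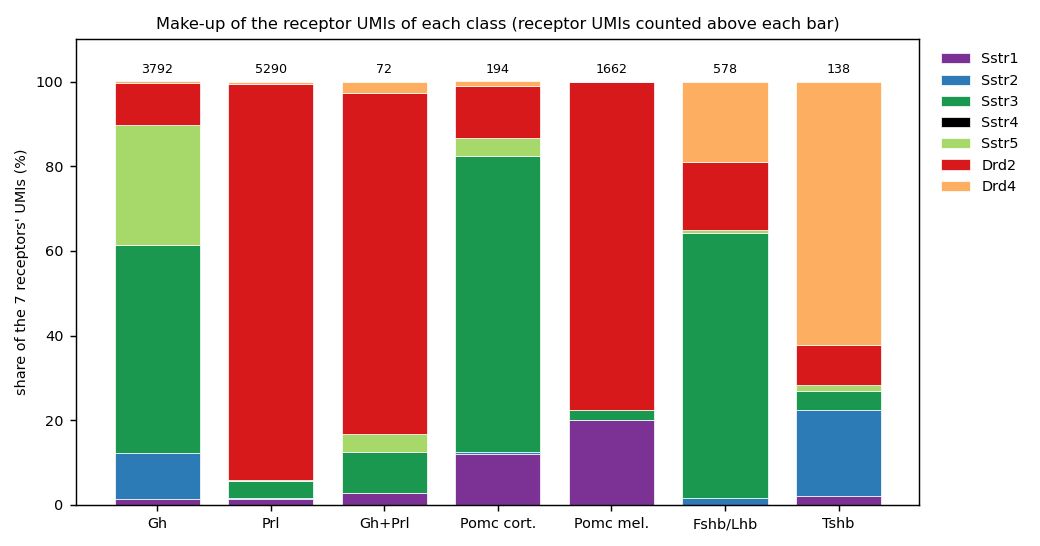
Share of each receptor among the UMIs of all 7 receptors, in percent, for the 7 hormone classes, with the number of receptor UMIs above each bar. Drd2 fills 93.6% of the Prl bar and 77.5% of the Pomc melanotroph bar, Sstr3 is the largest part in Gh, Pomc corticotroph and gonadotropin cells, and Drd4 in Tshb cells. When Pomc cells are split at a Pomc share of 10% instead, Drd2 leads in the class below it, which then takes in cells with the melanotroph genes.

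The receptor load as a whole also differed. Pomc melanotroph cells had 254 CPM of the 7 receptors together, Prl cells 97.7 CPM, gonadotropin cells 61.0 CPM, Tshb cells 45.7 CPM, Gh cells 24.8 CPM and Pomc corticotroph cells 14.2 CPM. These values are over all UMIs. Hormone genes took 44.1% of UMIs in Gh and 9.04% in Tshb cells, which lowers the Gh value more. Endothelial and immune cells had 6.11 and 4.86 CPM. At least 1 receptor UMI was found in 77.7% of Pomc melanotroph, 52.2% of gonadotropin and 47.7% of Prl cells, in 22.0% of Tshb, 20.6% of Gh and 9.19% of Pomc corticotroph cells, and in 2.80% of endothelial and 1.56% of immune cells. Median depth was 2924 and 3364 UMIs in the last 2, below that of every hormone class.

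Detection was therefore also compared at an equal depth of 4000 UMIs per cell. Hormone UMIs count within the 4000. Over whole classes, hormone genes took 44.1% of UMIs in Gh, 9.04% in Tshb and 2.49% in immune cells, which lowers detection in Gh cells more. This left out 104 Pomc melanotroph, 1052 Prl, 101 gonadotropin, 100 Tshb, 2284 Gh and 390 Pomc corticotroph cells, and 549 endothelial and 1279 immune cells. Drd2 was then found in 51.4% of Pomc melanotroph cells (70.4% before thinning) and in 31.1% of Prl cells (45.6%), against 0.324% of endothelial and 1.13% of immune cells. Sstr1 was found in 19.1% of Pomc melanotroph cells (32.6% before thinning), against 1.94% of endothelial cells and none of 709 immune cells. Sstr3 was found in 14.9% of gonadotropin (37.9%), 4.80% of Gh (11.1%), 3.79% of Pomc corticotroph (6.34%) and 3.24% of Pomc melanotroph cells (5.51%), against 0.324% of endothelial and 0.423% of immune cells. Drd4 was found in 9.25% of Tshb cells (14.1%) and 3.67% of gonadotropin cells (13.8%), against none of 309 endothelial and 709 immune cells. By its interval, a count of none there allows 1.19% and 0.519%.

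The lower levels were close to the limit of detection. At 4000 UMIs, Sstr2 was found in 3.18% of Tshb cells (5.38% before thinning) and 0.956% of Gh cells (2.53%), against none of the endothelial and 0.141% of the immune cells. Sstr5 was found in 2.55% of Gh cells (6.63%), against none of the endothelial and 0.282% of the immune cells. Drd2 was found in 1.05% of Gh cells, against 0.324% of endothelial and 1.13% of immune cells. The Gh shares in these comparisons are lowered by the hormone UMIs within the 4000. A cell without a UMI is therefore not a cell without the receptor.

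Prl and Gh cells descend from the same Pou1f1 lineage, and Drd2 and the somatostatin receptors divided them. The cells between both classes were set out by their second hormone, in bins chosen after seeing the data. Drd2 in Gh cells stood at 1.69 CPM where Prl made up under 0.1% of UMIs, 2.76 CPM at 0.1% to 0.5%, 8.29 CPM at 0.5% to 1%, 12.8 CPM at 1% to 2% and 18.8 CPM at 2% to 5%. In Gh and Prl cells it reached 31.3, 38.2, 38.6 and 49.8 CPM in sets 1 to 4 (43.4 CPM pooled, 32.9 to 56.1), so that each set lay below every set of the whole Prl class. Prl cells did not show a matching decline with their Gh share. They had 74.6 CPM under 0.5% Gh, 94.6, 90.0 and 83.4 CPM in the bins up to 5%, and 82.9 CPM at 5% to 15%. The bins of Gh cells with 0.5% to 2% Prl held 314 and 126 cells with median depths of 1276 and 1928 UMIs, and 10 Drd2 UMIs each. The part of doublets or free RNA in these values was not tested.

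Sstr3 and Sstr5 were lower in the bins of Prl cells than in the large bins of Gh cells. Neither fell steadily over the bins of Gh cells in which Drd2 rose. Sstr3 was between 10.8 and 13.2 CPM in all 5 bins of Gh cells, 5.24 CPM in Gh and Prl cells (7 UMIs, 2.11 to 10.8, from 0 to 15.7 CPM over the sets) and 3.37 to 6.55 CPM in the bins of Prl cells. Sstr5 was 6.73 and 7.51 CPM in the 2 large bins of Gh cells. In the smaller bins of Gh cells it was 4.15, 1.28 and 5.58 CPM, on 5, 1 and 8 UMIs. It was 2.24 CPM in Gh and Prl cells (3 UMIs, all in set 4) and at most 0.546 CPM in the bins of Prl cells. Sstr2 was 2.82 and 2.47 CPM in the large Gh bins and at most 0.200 CPM in Prl bins. It was not counted in the 123 Gh and Prl cells, where the interval allows up to 2.76 CPM.

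**Figure D3:**
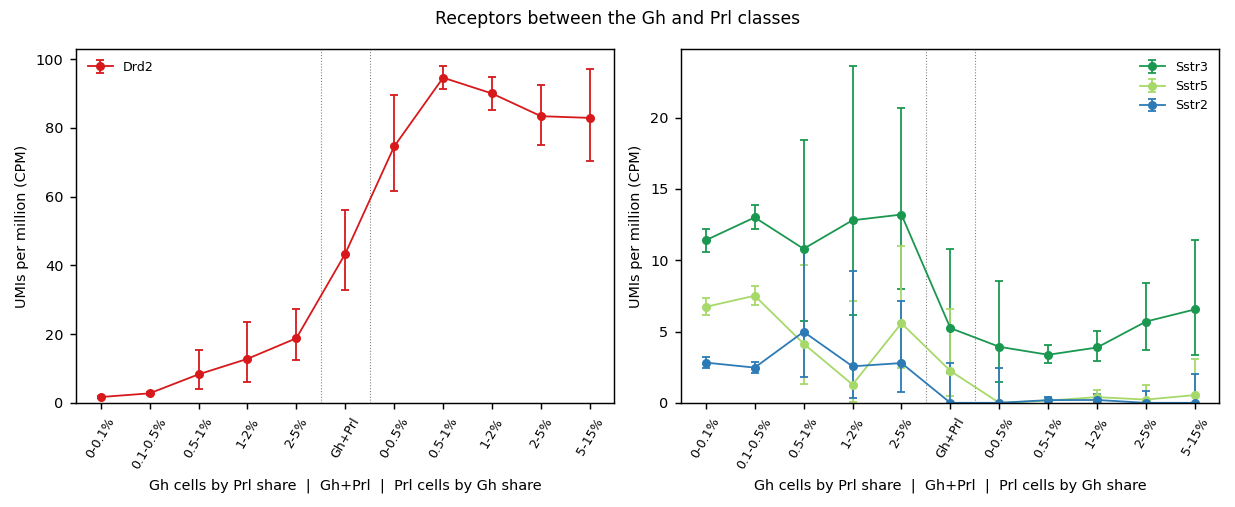
Drd2 (left) and Sstr3, Sstr5 and Sstr2 (right) in CPM, in Gh cells binned by Prl share, Gh and Prl cells, and Prl cells binned by Gh share. Error bars are exact Poisson 95% intervals. Drd2 stands at 1.69 CPM in the first bin, 43.4 CPM in Gh and Prl cells and 94.6 CPM in the Prl bin with 0.5% to 1% Gh.

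Within a class, cells were ordered by hormone share and cut into 4 equal groups inside each set, called steps 1 (lowest) to 4 (highest), with CPM taken over UMIs of genes other than hormones. In Gh cells the median Gh share was 25.5%, 38.1%, 46.2% and 54.1% in steps 1 to 4. Sstr2 stood at 3.24, 3.98, 4.62 and 6.93 CPM, higher in step 4 than in step 1 in all 4 sets. Drd2 went the other way, at 9.61, 3.93, 2.51 and 2.55 CPM, and step 1 was the highest in each set (6.70 to 11.6 CPM, against 1.93 to 3.27 CPM in step 4). Sstr3 stood at 22.3, 23.9, 21.7 and 19.5 CPM and Sstr5 at 11, 12.5, 13.5 and 13.0, with intervals that overlapped between steps 1 and 4. With CPM over all UMIs, step 4 was the lower for both, at 8.79 against 16.5 for Sstr3 and 5.88 against 8.15 for Sstr5. Sstr2 was then 2.40, 2.44, 2.47 and 3.13 CPM in steps 1 to 4, and Drd2 7.12, 2.41, 1.34 and 1.15 CPM. Median depth ran from 6108 UMIs in step 1 to 13103 in step 4, and its part in these trends was not tested.

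The other classes gave their own patterns. In Prl cells Drd2 stood at 108, 119, 120 and 138 CPM from step 1 to step 4, and step 4 was above step 1 in all 4 sets (130 to 150 CPM, against 96.3 to 122 CPM), but with CPM over all UMIs it ran the other way, at 96.3 CPM in step 1 and 83.4 CPM in step 4. In Pomc melanotroph cells Drd2 had 207 CPM in step 1 and 260, 251 and 263 CPM in the others, while over all UMIs step 4 (183 CPM) was not above step 1 (187 CPM). Sstr1 ran the other way in these cells, at 80.6, 74.8, 55.1 and 45.4 CPM, with step 4 below step 1 in 3 of 4 sets and above it in set 3 (63.0 against 52.1 CPM). Sstr3 in Pomc corticotroph cells stood at 6.95, 10.8, 11.7 and 14.6 CPM on 22 to 46 UMIs a step, and set 3 again ran against the other sets (5.19 CPM in step 4 against 6.90 CPM in step 1). Gonadotropin cells had 38.6, 38.1, 47.3 and 51.0 CPM of Sstr3, with overlapping intervals.

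**Figure D4:**
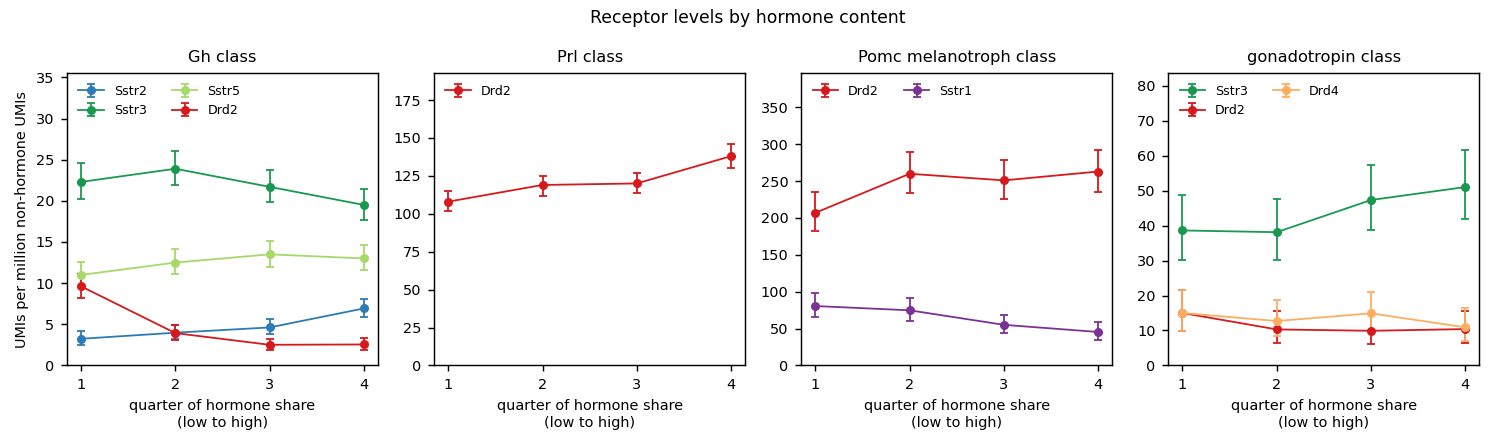
Receptor CPM over UMIs of genes other than the 7 hormone genes, by equal groups of cells ordered by hormone share (1 lowest, 4 highest) in the Gh, Prl, Pomc melanotroph and gonadotropin classes. Error bars are exact Poisson 95% intervals. In Gh cells Sstr2 stands at 3.24 CPM in the lowest and 6.93 CPM in the highest group, and Drd2 at 9.61 and 2.55 CPM.

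Receptors found in the same cells mostly met as often as their separate shares and depth give. In Pomc melanotroph cells 180 cells had both Sstr1 and Drd2 UMIs (counting interval 155 to 208), where the product of shares within 10 groups of cells by depth was 176. These were 80.0% of the 225 cells with Sstr1. In gonadotropin cells 42 had Sstr3 and Drd4 (30.3 to 56.8, product 40.2) and 36 had Sstr3 and Drd2 (25.2 to 49.8, product 37.3). In Gh cells Sstr3 and Sstr5 shared 167 cells (143 to 194), above the product of 131, a ratio of 1.28. Sets 1 and 2, where both genes were higher, held 45 and 83 of these cells, against 17 and 22 in sets 3 and 4, and the part of this difference between sets in the ratio was not tested. In Gh cells Sstr2 met Sstr3 in 57 cells (43.2 to 73.9, product 52.6) and Sstr5 in 34 (23.5 to 47.5, product 32.9). The 3 pairs among these somatostatin receptors thus had ratios between 1.03 and 1.28, and the interval left out the product for Sstr3 with Sstr5 only.

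A gene was said to peak in a class when that class had its highest CPM among the 6 single-hormone classes in each of the 4 sets, with at least 20 UMIs there. Of 16280 genes tested, 35.9% peaked somewhere, 2.07% in the Gh, 3.42% in the Prl, 8.23% in the Pomc corticotroph, 4.97% in the Pomc melanotroph, 8.59% in the gonadotropin and 8.65% in the Tshb class. All 6 receptors tested peaked, Sstr5 in Gh, Sstr1 and Drd2 in Pomc melanotroph, Sstr3 in gonadotropin and Sstr2 and Drd4 in Tshb cells, while Sstr4 had too few UMIs. In 5 lists of the pathway 59 genes were found, 51 were tested and 25 peaked. Of these 1 peaked in the Gh, none in the Prl, 5 in the Pomc corticotroph, 7 in the Pomc melanotroph, 6 in the gonadotropin and 6 in the Tshb class. The counts of each list given below are to be read beside the same shares of all genes, with 35.9% peaking somewhere.

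Among ligands, dopamine enzymes and other dopamine receptors, 4 of 10 genes were tested and all 4 peaked. Ddc, which makes dopamine from L-DOPA, peaked in Gh cells at 9.20 CPM, with sets from 8.78 to 9.85 CPM, and had 4.11 CPM in gonadotropin cells. Maob, a monoamine oxidase, peaked in Tshb cells at 57.0 CPM (44.8 to 68.6, against 12.4 CPM in Gh cells). Th, which makes L-DOPA, fell below the count for naming and is named after its values were seen. It had 79 of its 89 UMIs in gonadotropin cells, at 15.5, 8.14, 8.47 and 5.63 CPM in sets 1 to 4, against 0.306 CPM in Pomc melanotroph cells. Drd3, another Drd2-like receptor named for the same reason, had 14 of its 15 UMIs in gonadotropin cells. The ligand genes Sst and Cort had 10 and 7 UMIs in the 6 classes, Drd1 had 6 and Drd5 none.

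Of 12 G protein subunits, 7 peaked. Gnai1, an inhibitory alpha subunit, led in Pomc melanotroph cells at 93.7 CPM (70.9 to 114 over the sets), with 60.8 CPM in Prl cells and no more than 6.22 CPM in any of the rest, which set the 2 classes with high Drd2 apart. Gnai2, the most abundant inhibitory alpha subunit by UMIs, was spread more evenly, with 395 CPM in Pomc corticotroph against 344 CPM in Prl cells. Gnao1 stood at 194 CPM in Tshb against 165 CPM in Prl cells. The gamma subunits Gng7 (12.6 CPM) and Gng4 (88.5 CPM) peaked in Pomc melanotroph cells, Gng3 (141 CPM) in Tshb cells and the beta subunit Gnb2 (412 CPM) in Pomc corticotroph cells. The peaks of Gnai2 and Gnao1 were not called with hormone genes left out of the totals.

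Of 8 effector channels, 7 were tested and 5 peaked. The calcium channel gene Cacna1a stood at 89.3 CPM in Pomc melanotroph against 52.9 CPM in Prl cells, and the potassium channel gene Kcnj6 at 52.8 CPM against 42.1 CPM in Tshb cells. Kcnj9 had 11.6 CPM in Pomc corticotroph against 6.28 CPM in Pomc melanotroph cells. Cacna1c had 35.4 CPM in gonadotropin against 24.2 CPM in Tshb cells, and Cacna1b 46.0 CPM in Tshb against 33.3 CPM in Gh cells. Without hormone genes in the totals Kcnj9 and Cacna1b no longer met the rule.

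Adenylyl cyclases make the cyclic AMP that these receptors lower, and 3 of 7 tested peaked. Adcy2 stood at 45.4 CPM in Pomc corticotroph against 23.2 CPM in Gh cells, Adcy9 at 33.1 CPM in Tshb against 12.4 CPM in Pomc melanotroph cells and Adcy6 at 95.4 CPM in Tshb against 72.1 CPM in Prl cells. Of 21 kinases, arrestins, RGS proteins and phosphatases that end or modify receptor signals, 6 peaked, 4 of them in gonadotropin cells. Among all 16280 genes tested, 35.9% peaked somewhere and 8.59% in gonadotropin cells. Rgs4, which speeds the switch-off of inhibitory G proteins, reached 419 CPM in gonadotropin cells, with sets from 346 to 462 CPM, and stood at 115 CPM in Tshb cells (93.2 to 136 CPM). Arrb2, an arrestin, had 36.9 CPM in gonadotropin against 14.2 CPM in Tshb cells, and Rgs17 had 53.7 CPM against 30.6 CPM in Pomc corticotroph cells. Rgs7 peaked in Pomc corticotroph cells (73.8 CPM, against 40.0 CPM in Pomc melanotroph cells). Rgs3 peaked in Pomc melanotroph cells (14.5 CPM, against 10.0 CPM in Prl cells), though not without hormone genes in the totals.

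Across the 24 points of 6 classes in 4 sets, 15787 other genes with at least 200 UMIs were ranked by the correlation of their log2(CPM + 1), with hormone genes left out of the totals, with each receptor of at least 500 UMIs. Points of 1 class share their cell type and points of 1 set their libraries, so r is a description. Nearest to Drd2 were Gabra2 (r = 0.954), a GABA-A receptor subunit, Tubb3 (0.944), a neuronal beta tubulin, Gnai1 (0.942), Wdr72 (0.922) and the syntaxin Stx6 (0.911). With hormone genes kept in the totals r was 0.777 for Stx6 and 0.924 to 0.955 for the others. Spearman's rho ran from 0.759 for Wdr72 to 0.888 for Tubb3. Gabra2 stood at 98.0 CPM in Pomc melanotroph and 61.3 CPM in Prl cells, and at 0.654 to 1.32 CPM in the other 4 classes. Tubb3 had the reverse order of these 2 classes, with 41.0 CPM in Pomc melanotroph and 63.7 CPM in Prl cells. The likeness thus rests on both classes standing apart from the other 4.

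**Figure D5:**
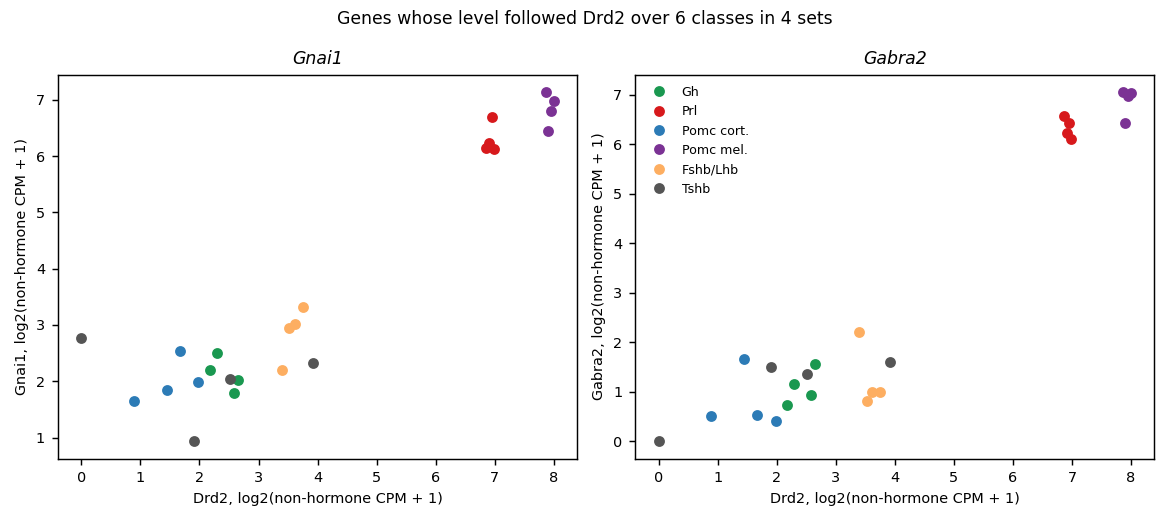
Gnai1 (left) and Gabra2 (right) against Drd2, each as log2 of CPM over non-hormone UMIs plus 1, with 1 point for each of 6 classes in each of 4 sets. The 8 points of Pomc melanotroph and Prl cells lie at the upper right, apart from the 16 points of the other classes (r = 0.942 and 0.954).

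Nearest to Sstr5 were Ccdc88a (r = 0.945), which encodes the actin-binding protein girdin, the fatty acid-binding protein gene Fabp12 (0.933), Gh itself (0.931), the metalloprotease gene Mmp7 (0.925) and Ceacam10 (0.922). Gh also set the Gh class, so its place is partly fixed by the rule. Spearman's rho was 0.547 for Gh, 0.652 for Mmp7 and 0.649 for Ceacam10. Fabp12 had 4.31 CPM in Gh cells and at most 1.32 CPM elsewhere, and Ceacam10 57.8 CPM in Gh cells and at most 5.48 CPM elsewhere. Ccdc88a was more even, with 118 CPM in Gh cells and 78.7 to 110 CPM in the other classes, and its r was 0.693 with hormone genes kept in the totals. For Sstr3 the nearest genes were Nagk (0.903), Eif3d (0.880), Cct8 (0.876), Tcp1 (0.876) and Sdha (0.870), which encode a sugar kinase, a translation factor, 2 chaperonin subunits and a mitochondrial dehydrogenase. These values were 0.508 to 0.802 with hormone genes kept in the totals, so the Sstr3 neighbours depend on the scaling.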

How the data were processed

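Single-cell RNA was measured in pituitary cells of 4 pooled libraries (2 HFD, 2 ND). The authors deposited 1 matrix of raw UMI counts per gene and barcode, made with Cell Ranger 8.0.1 per the file headers; the genome build is not given in the sources used here. Seurat is named in the submitters' processing notes with no role. The receptors and gene lists were chosen with earlier results of these data known.

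The barcode number (1 to 4) is tied to no library by any label, so the matrix was treated as 1 sample and edgeR, planned only for labelled samples, was not run. Cells with at least 500 UMIs, 250 genes and at most 25% mitochondrial UMIs were kept (567 of 40406 removed). Scrublet (scanpy 1.11.5) was run per set at an expected rate of 8%, set after the default marked almost no cell in sets 1 and 4; it marked 3632 cells (9.12%), which left 36207. A hormone class also needed 3 hormone UMIs. Melanotroph cells had at least 2 UMIs and 3 per 10000 of Pax7, Oacyl and Pcsk2. Endothelial and immune cells, below all thresholds, had at least 3 UMIs from 2 genes of their list.

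CPM were computed from counts summed over cells, with exact Poisson intervals, and shares with exact Clopper-Pearson intervals, in Python 3.11.15 with numpy 2.4.6, scipy 1.17.1 and pandas 2.3.3. UMIs are counted molecules, and intervals and floors (3 counts) cover counting error only. The peak and correlation steps were tested on simulated data. Named were all 7 receptors, up to 3 genes per list and class with a peak and at least 100 UMIs, by fold over the next class, and the 5 genes most like each receptor with at least 500 UMIs. One list gene that met this rule is not reported here. The promoter motifs, the bins of Gh and Prl cells and the tolerance for r were chosen after values were seen. Leaving out sets in the background cells was also chosen after values were seen. Alternatives changed thresholds, filters, doublets, the Pomc split, scaling, free RNA and the sets used.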

Additional observations from a re-analysis of the deposited data

How the results depend on the processing

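No paired analysis was possible because no label ties a barcode to a library, so replicate numbers could not be used. The leading receptor's share of receptor UMIs moved beyond its interval in a few settings. With doublets kept, it was 45.8% for Sstr3 in Gh, 92.9% for Drd2 in Prl and 60.6% for Sstr3 in Pomc corticotroph cells. With free RNA subtracted, it was 51.8% in Gh and 95.1% in Prl cells. With the Pomc split at 10%, Sstr3 held 25.7% in Pomc corticotroph cells, and with thresholds doubled Drd4 held 53.3% in Tshb cells. Without set 1, Drd2 held 75.1% in Pomc melanotroph cells. Leaving out 1 set gave 48.5% to 49.7% for Sstr3 in Gh, 93.3% to 94.1% for Drd2 in Prl, 69.2% to 71.1% for Sstr3 in Pomc corticotroph, 75.1% to 79.3% for Drd2 in Pomc melanotroph, 59.1% to 64.5% for Sstr3 in gonadotropin and 55.8% to 67.8% for Drd4 in Tshb cells. Counts of list genes with a peak, with hormone genes out of the totals, were 3 for Gh, 2 for Prl, 3 for Pomc corticotroph and 4 for Tshb cells, of 51 genes tested, where 8.10%, 4.51%, 5.44% and 4.92% of all genes peaked. Leaving out 1 set they were 1 for Gh, 0 to 2 for Prl (2 without set 4), 5 to 7 for Pomc corticotroph, 7 to 9 for Pomc melanotroph, 6 for gonadotropin and 6 to 8 for Tshb cells. A peak then needed the highest CPM in fewer sets. The share of all genes that met this looser rule was not counted, so a higher count cannot be read as a gain. Of 20 receptor levels on at least 20 UMIs, all 20 stayed within their interval under the stricter filter (1000 UMIs, 500 genes, 10% mitochondrial) and under halved thresholds, and 18 under doubled thresholds. Without hormone genes in the totals 9 of 20 did, with the Gh values up to 1.79 times as high. With free RNA subtracted 12 of 20 did, and Drd2 was 0.809 CPM in Gh, 0.644 CPM in Pomc corticotroph and 6.37 CPM in gonadotropin cells. With each cell weighing the same 17 of 20 did, and Drd2 in Pomc corticotroph cells was 3.70 CPM. Leaving out 1 set gave 80 values of these levels, of which 71 stayed within their interval and none moved by over 1.5 times. Of 15 likeness values, 8 stayed within 0.1 with all UMIs in the totals and 7 with Spearman's rho. Depth limits the Gh and Prl class (72 receptor UMIs) and the Tshb class (138) most. The cause of each move was not tested.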

Other observations

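Cells below every hormone threshold also carried receptors. These 5473 cells had 35.2 CPM of Drd2 and 7.89 CPM of Sstr3. Those with 2.5% to 5% Prl (565 cells) had 86.6 CPM of Drd2, next to 92.8 CPM in cells just inside the Prl threshold (5% to 10%, 1134 cells). Those with 7.5% to 15% Gh (1007 cells) had 20.4 CPM of Sstr3, 7.35 CPM of Sstr5, 19.7 CPM of Drd2 and 0.334 CPM of Sstr2 (1 UMI), next to 16.8, 8.40, 8.09 and 2.27 CPM (43 UMIs of Sstr2) just inside (15% to 30%, 2935 cells). Cells just below the gonadotropin threshold (73 cells) had 9 Sstr3 UMIs and 11 Drd2 UMIs, next to 8 and 4 UMIs just inside (26 cells). Cells just below the Tshb threshold (69 cells) had 2 Drd4 UMIs, next to 8 UMIs just inside (59 cells).

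Stem or folliculostellate marker cells (1573 cells, 7328 UMIs at the median) had 4.06 CPM of Sstr3 and 3.99 CPM of Drd2, and 1.02 CPM of Sstr5. Over the barcode sets, Sstr3 and Sstr5 in Gh cells, Sstr3 in Pomc corticotroph cells and Drd4 in Tshb cells were all higher in sets 1 and 2 than in sets 3 and 4, while Drd2 in Prl cells spread 1.14-fold. Sstr1 in Pomc melanotroph cells was lower in sets 1 and 2 (39.2 and 50.2 CPM) than in sets 3 and 4 (57.7 and 66.8 CPM), and Sstr3 in gonadotropin cells and Sstr2 in Tshb cells were lowest in set 1 (23.8 and 4.21 CPM). These genes were picked after their values were seen. Whether this follows the diet cannot be told, since no label ties a set to a library.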
